A study of Mus musculus with 2 samples.

Results

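The genes Kcnn4, Cacna1h and Cntnap1, of membrane excitability and axon structure, were examined in RNA bound by the antibody BG4 in mouse forebrain. BG4 recognises G-quadruplexes, and the library made with it was set against a library in which normal rabbit IgG took its place, with 1 library for each antibody. For strain, sex, age and number of animals, nothing is stated in the sources used here. The deposited table lists 170 genes, and the members were chosen from it by gene symbol and by role (2 ion channels and 1 axonal protein), with their BG4 and IgG values already in view. They make up 3 of the 170 genes, and those values are therefore given as a description, with no test. All 170 listed genes had a higher value in BG4 than in IgG, and in the authors' deposited table the largest p-value was 0.04865. The table is thus a selection of genes, by a rule that was not stated. Values were taken to be FPKM (fragments per kilobase of transcript, scaled to the mapped fragments of the library). The number of reads behind them is unknown, and no value has a spread between replicates.

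A G-quadruplex forms when guanines of 4 nearby runs pair into flat squares that stack on each other around potassium ions. In RNA such structures have been studied in untranslated regions (UTRs), and in the 5′ UTR they can slow scanning ribosomes. Kcnn4 encodes a calcium-activated potassium channel of intermediate conductance, also called KCa3.1, which is gated by calmodulin and is known above all from red blood cells, lymphocytes and microglia. Cacna1h encodes the pore-forming subunit of the T-type calcium channel Cav3.2, which opens at low voltage and supports burst firing in neurons. Cntnap1 encodes Caspr, an axonal membrane protein that pairs with contactin at the paranodal junctions flanking each node of Ranvier, where myelin loops attach to the axon.

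The guanine-rich stretches of the transcripts are shown first, because they are the feature that the antibody is meant to select and they were not used to choose the genes. They were read from the GENCODE release M21 transcripts (mm10), run 5′ to 3′ in the sense of the transcript and are written in DNA letters, with guanine runs in capitals. In the first set capitals mark runs of 3 or more guanines, and each sequence matches a pattern of 4 such runs with loops of 1 to 7 bases, although in Kcnn4 the last run has to be split to give 2 of the 4:

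Kcnn4, retained-intron transcript Kcnn4-205, chr7:24386125-24386146, plus strand: GGGGcaGGGGGcggaGGGGGGG

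Cacna1h, 5′ UTR, chr17:25433573-25433592, minus strand: GGGtGGGccGGGGGcgcGGG

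Cacna1h, intron, retained in Cacna1h-203, chr17:25432588-25432614, minus strand: GGGGcGGGGGatGGGGGGaaagatGGG

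Cacna1h, intron, retained in Cacna1h-204, chr17:25378905-25378938, minus strand: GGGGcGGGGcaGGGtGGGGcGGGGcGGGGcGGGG

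Cntnap1 had no match to this definition in either annotated transcript. The second set matches a less strict pattern of 4 runs of 2 or more guanines, marked by capitals, and was picked by eye near the start of translation or for long runs. The Kcnn4 motif in the coding sequence has 3 separate runs and matches only when its run of 5 is split:

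Kcnn4, 5′ UTR, chr7:24370386-24370405, plus strand: GGtGGGGGaccctGGGcaGG

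Kcnn4, across the start codon, chr7:24370431-24370452, plus strand: GGGGccatGGGcGGGGagctGG

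Kcnn4, coding sequence, chr7:24377414-24377424, plus strand: GGcGGGGGaGG

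Cntnap1, 5′ UTR, chr11:101176115-101176139, plus strand: GGGGGtaGGagagaGGGaaGGGtGG

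Cntnap1, coding sequence, chr11:101180474-101180496, plus strand: GGGGGacGGGctGGGtcatgtGG

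Kcnn4, the calcium-activated potassium channel, had 210.0 FPKM in the BG4 library and 0.882 FPKM in the IgG library. Its BG4 value ranked 3 and its IgG value 22 among the 170 genes, so it stood high in both libraries of this table. The log2 ratio of BG4 to IgG, after adding a pseudocount of 1 FPKM to both, which understates the difference of low genes, came to 6.81 and ranked 6. Against the medians of the table, 7.88 FPKM in BG4 and 0.143 FPKM in IgG, the BG4 value was 26.6 times and the IgG value 6.17 times as high. Without a pseudocount its BG4 value was 238 times its IgG value, which ranked 15 of 169 genes, leaving out 1 whose IgG value was effectively 0.

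Cacna1h, the T-type calcium channel subunit, had 4.37 FPKM in BG4 and 0.0625 FPKM in IgG. Its log2 ratio with the pseudocount was 2.34, rank 138 of 170, and its fold without one was 70.0, rank 74 of 169. Both values lay below the medians of the table, at 0.555 times the median in BG4 and 0.437 times the median in IgG. The gene therefore stood in the lower part of the table by its ratio with the pseudocount and above the middle without it.

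Cntnap1, the paranodal protein, had 7.60 FPKM in BG4 and 0.150 FPKM in IgG. Its values were close to the middle of the table in both libraries, 0.964 times the BG4 median and 1.05 times the IgG median. The log2 ratio was 2.90, rank 80 of 170, beside a median of 2.87 over all listed genes. Without a pseudocount its BG4 value was 50.6 times its IgG value, rank 91 of 169, beside a median of 54.0.

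**Figure D1:**
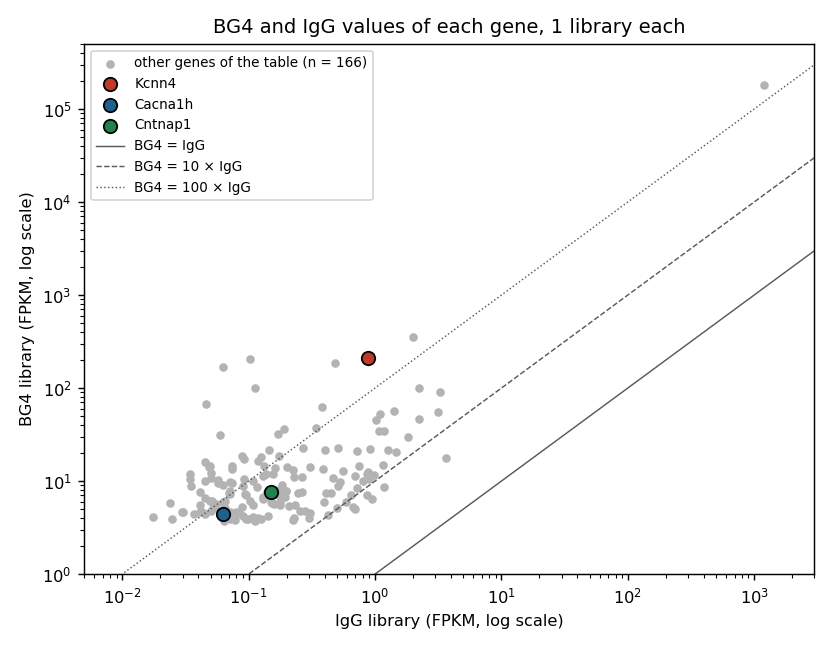
FPKM in the BG4 library (vertical axis, log scale) against FPKM in the IgG library (horizontal axis, log scale) for each gene, with lines at equal, 10-fold and 100-fold values; 1 gene with an IgG value of effectively 0 is left out. Kcnn4, at 210.0 FPKM in BG4 and 0.882 FPKM in IgG, lies above the 100-fold line and to the upper right of Cacna1h (BG4 4.37, IgG 0.0625 FPKM) and Cntnap1 (BG4 7.60, IgG 0.150 FPKM), which sit among most other genes.

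Kcnn4 stood further above the other members in BG4 than in IgG. The BG4 value of Kcnn4 was 48.0 times that of Cacna1h and 27.6 times that of Cntnap1 in FPKM, a level per length. In IgG the value of Kcnn4 was 14.1 times that of Cacna1h and 5.88 times that of Cntnap1. Cntnap1 exceeded Cacna1h 1.74 times in BG4 and 2.40 times in IgG. The order of Cntnap1 and Cacna1h by ratio depended on the pseudocount: Cntnap1 was above Cacna1h with 1 FPKM (log2 ratios 2.90 and 2.34) and with 0.1 FPKM (4.94 and 4.78), and below it with none (5.66 and 6.13). Kcnn4 was the highest of the 3 on each scale.

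All 3 members were above a 2-fold ratio with the pseudocount, as were 100% of the 170 listed genes, so the count says nothing about the members. At 100-fold or more without a pseudocount there was 1 of 3 members, Kcnn4, against 32% of the 169 genes. When each library was first divided by its own median over the table and 1 was added, the log2 ratio was 1.95 for Kcnn4, 0.11 for Cacna1h and -0.061 for Cntnap1. On that scale 48.8% of the 170 genes were higher in BG4, and 2 of the 3 members were. This scaling moved the median log2 ratio of the table to -0.0096. Relative to the median of the table on each scale, Kcnn4 stood 3.94 higher with the pseudocount of 1 FPKM and 1.96 higher after division by the library medians. Cacna1h stood at -0.53 with the pseudocount and at 0.12 after that division, and Cntnap1 at 0.035 and -0.051.

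**Figure D2:**
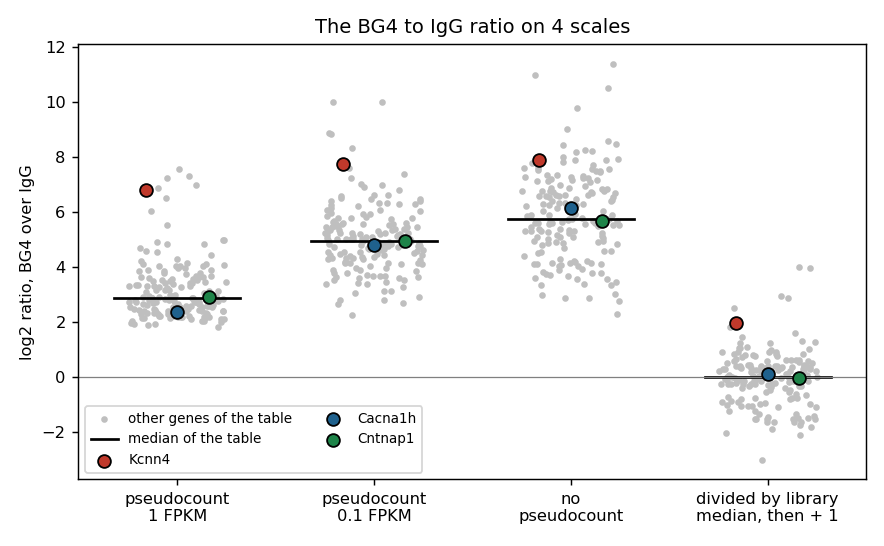
Log2 ratio, BG4 to IgG (vertical axis), at pseudocounts of 1 FPKM and 0.1 FPKM, with none, and after division of each library by its own median; grey points are the other genes, black bars the median of the table. Kcnn4 stays in the upper part on each scale (6.81, 7.74, 7.89 and 1.95), while Cacna1h (2.34, 4.78, 6.13 and 0.11) lies below the median bar at the first pseudocount and near it on the other scales, and Cntnap1 (2.90, 4.94, 5.66 and -0.061) lies near it on all 4.

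The q-values of the members in the authors' deposited table were 0.0179 (Kcnn4), 0.268 (Cacna1h) and 0.267 (Cntnap1). The q of Kcnn4 in the authors' deposited table was shared by 5 genes, itself included, and 3 had a lower one. A q under 0.05 in the authors' deposited table was met by 1 of 3 members, against 8.24% of the 170 genes. In the authors' deposited table, the unadjusted p was 0.00025 for Kcnn4, 0.02935 for Cacna1h and 0.02885 for Cntnap1. That test compares 1 library with 1 library and not the antibodies.

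The genes closest to each member in the plane of log2 BG4 and log2 IgG values were named, 3 for each. The nearest to Kcnn4 were Myo18a, an unconventional myosin (185 FPKM in BG4 against 0.478 FPKM in IgG), 4930500J02Rik (350.0 FPKM in BG4 against 1.99 FPKM in IgG) and Itsn1, an endocytic scaffold (100.5 FPKM in BG4 against 2.21 FPKM in IgG), at distances of 0.90, 1.39 and 1.70 log2 units. Cacna1h lay far nearer to its neighbours, with Simc1 at 0.081, Alox5, a lipoxygenase of leukotriene synthesis, at 0.11 and Mtap7d3 at 0.17. Cntnap1 had Senp5, a SUMO protease, and Tor1a, the torsin of the nuclear envelope and endoplasmic reticulum, both at 0.093, and Smn1, the survival of motor neuron protein, at 0.12. These distances rest on 2 libraries and describe likeness of values only. Next to the members in the order of log2 ratios stood 4930500J02Rik (6.87) and Ncapd2 (6.50) around Kcnn4, Eva1c (2.34) and Tsc22d1 (2.33) around Cacna1h, and Tor1a (2.92) and Mical1 (2.90) around Cntnap1.

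The authors' deposited table gives a genomic stretch, the locus, for each gene, and this was compared with the annotation. Which bases of a locus the value counts was not stated in the sources used here. In mm10 the deposited locus of Kcnn4 (ENSMUSG00000054342.7) ran from 24370263 to 24385209 on chromosome 7, plus strand, and no exon of another annotated gene overlapped it. The annotated gene of release M21 reaches to 24386690, because the retained-intron transcript Kcnn4-205 ends 1481 bases beyond the deposited locus. The motif with runs of 3 or more guanines printed above for Kcnn4 lies in those bases, outside the deposited locus and outside the exons of the coding transcripts.

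The deposited locus of Cacna1h (ENSMUSG00000024112.12) ran from 25369273 to 25433783 on chromosome 17, 5012 bases further than the annotated gene, which lies on the minus strand from 25374285. Its start equalled that of Tpsg1, a mast cell tryptase gene on the plus strand. Exons of Tpsg1 and Cacna1h shared 158 bases, at 25374285 to 25374442, all in the 3′ UTR of Cacna1h and in 3 of its 10 transcripts. The deposited locus of Cntnap1 (ENSMUSG00000017167.6), from 101162679 to 101190724 on chromosome 11, began 7844 bases before the annotated gene on the plus strand. Its start equalled that of Plekhh3, which lies on the minus strand, and the exons of Plekhh3 and Cntnap1 shared 233 bases in the non-coding transcript Cntnap1-202. The gene of the chemokine receptor Ccr10, also on the minus strand, lay within the locus and shared no exon base with Cntnap1. How strand was handled in counting was not stated, so reads from the shared bases cannot be told apart and the values of Cacna1h and Cntnap1 are uncertain to that extent. Tpsg1, Plekhh3 and Ccr10 were not among the listed genes, and the part of the shared bases in the values was not tested.

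**Figure D3:**
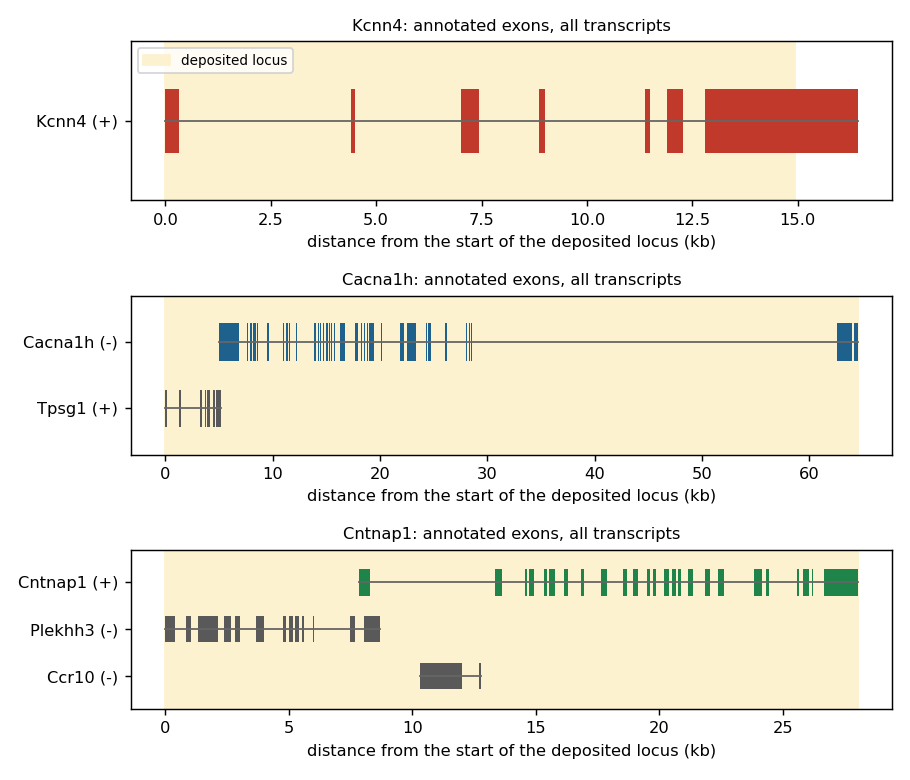
Annotated exons of each member and of other genes inside its deposited locus (shaded), by distance in kb from the start of the locus; boxes are exons of all transcripts, and the strand is in brackets. In Kcnn4 only the retained-intron transcript Kcnn4-205 runs past the shading, by 1481 bases. The loci of Cacna1h and Cntnap1 begin at Tpsg1 and Plekhh3, 5012 and 7844 bases before the members.

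The transcripts differed in how much guanine-rich sequence they hold. Putative motifs of 4 guanine runs, each 3 or more long, were searched as runs of the letter G separated by loops of 1 to 7 bases of any kind, on the strand of the transcript. In the longest annotated transcript there was 1 such motif for Kcnn4, 1 for Cacna1h and 0 for Cntnap1, and 19.0% of all 21951 protein-coding genes had at least 1. For Kcnn4 the longest transcript is the non-coding Kcnn4-205, of 3637 bases, and the coding transcripts held 0. The Kcnn4 motif also meets the definition only because guanines of a long run may serve as a loop: with 4 separate runs required it was not counted.

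The single motif in the coding transcripts of Cacna1h lay in the 5′ UTR, at positions 192 to 211 of Cacna1h-205 counted from its 5′ end, and consisted of 4 separate runs. It was shared by 5 of the 10 annotated transcripts. With the exons of all transcripts merged, Cacna1h held 6 motifs, 5 of which lay in introns of the coding transcripts. Of these, 4 were in Cacna1h-203, whose last exon runs on into intron sequence and which held the most (5 motifs in 1662 bases). The other 1 was in Cacna1h-204, a stretch of 34 bases with 7 guanine runs separated by loops of 1 or 2 bases. Whether RNA with these introns was in the libraries cannot be read from a value per gene.

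Motifs with 4 runs of 2 or more guanines and the same loops separated the members further. In the longest coding transcript, Kcnn4-201, of 1990 bases, there were 14, or 7.04 per kilobase. Cacna1h-205, of 8230 bases, had 28, or 3.40 per kilobase. Cntnap1-201, of 5440 bases, had 10, or 1.84 per kilobase. Among the longest coding transcripts of 21866 genes, with a median of 1.93 per kilobase, these densities lay at percentile 98.3 for Kcnn4, 78.0 for Cacna1h and 48.0 for Cntnap1. Among the 163 protein-coding genes of the table, with a median of 2.50 per kilobase, they lay at percentile 98.5, 70.9 and 32.2. The coding transcript was taken for these percentiles after the data were seen, and for Kcnn4 the choice decides the value. In its longest transcript, the non-coding Kcnn4-205, the density was 3.57 per kilobase, at percentile 80.8 of 21951 genes and 77.0 of the table, close to the 3.40 of Cacna1h at percentile 78.5 on that basis. Of all protein-coding genes, 91.7% had at least 1 such motif in their longest transcript, so holding one does not set a gene apart.

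**Figure D4:**
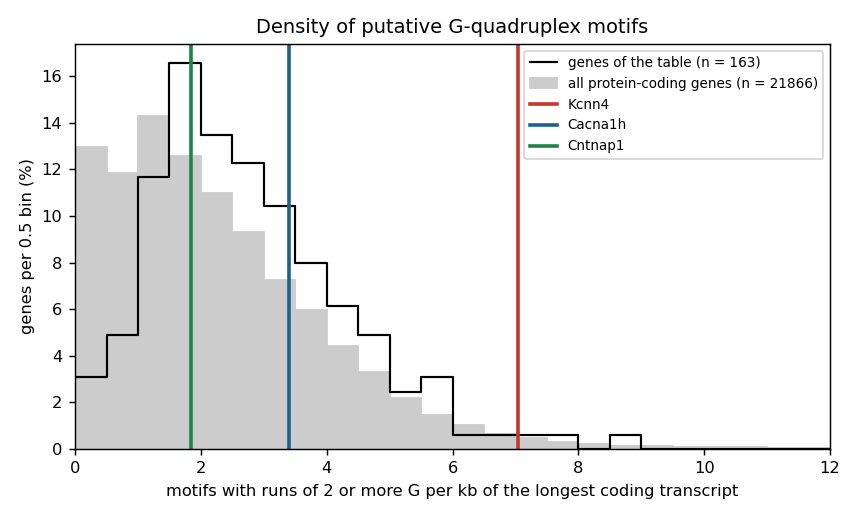
Motifs with runs of 2 or more guanines per kilobase of the longest coding transcript (horizontal axis), with the percentage of genes in each bin for all protein-coding genes (grey) and for genes of the table (black line); coloured lines mark the members. Kcnn4 lies in the right tail at 7.04 per kilobase (3.57 in its longest, non-coding transcript, not drawn), Cacna1h at 3.40 and Cntnap1, at 1.84, left of the table's median of 2.50.

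In Kcnn4, 2 of the 14 motifs began in the 5′ UTR, 10 in the coding sequence and 2 in the 3′ UTR. The density in its coding sequence, 7.84 per kilobase, was at percentile 97.3 of 21855 genes with at least 50 coding bases. The coding sequence was 33.3% guanine, against a median of 26.1% over those genes. The 25 bases with the highest G4Hunter score, a mean in which guanines add and cytosines subtract according to run length, straddled the start codon in all 3 coding transcripts of Kcnn4, with a score of 1.64. That score was at percentile 66.2 of the best windows of 21865 genes, so many genes hold a window as strong.

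In Cacna1h, 26 of the 28 motifs began in the coding sequence, which spans 7077 bases and had a density of 3.67 per kilobase, percentile 77.6. Its 5′ UTR was 36.7% guanine, percentile 79.1 of 18319 genes with a median of 30.1%, and 74.4% guanine and cytosine together. The motif density in that 5′ UTR, 3.01 per kilobase from 1 motif, was at percentile 46.3. The best G4Hunter window of the coding transcripts scored 1.92, at percentile 81.8 of 21865 genes, and matched neither motif pattern. It lay at chr17:25374327-25374351, in the 3′ UTR and within the bases shared with Tpsg1. The guanines are on the strand of Cacna1h, and Tpsg1 lies on the opposite strand:

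Cacna1h, 3′ UTR, minus strand, runs of 2 or more guanines in capitals: gtcaaagctaaGGGGaGGGGaGGGG

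In Cntnap1, 9 of the 10 motifs began in the coding sequence of 4155 bases, 1 in the 5′ UTR and 0 in the 3′ UTR of 1068 bases. The 5′ UTR was 42.4% guanine, percentile 92.6 of 18319 genes, and held the best window of the transcript, with a G4Hunter score of 1.92. The 3′ UTR was 21.6% guanine, at percentile 52.1 of 20574 genes. Guanine was thus most frequent at the 5′ end of Cntnap1, in the same order as over all genes. The medians there were 30.1% in the 5′ UTR, 26.1% in the coding sequence and 21.4% in the 3′ UTR. Its motif density in the 5′ UTR, 4.61 per kilobase from 1 motif, was at percentile 54.5.

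**Figure D5:**
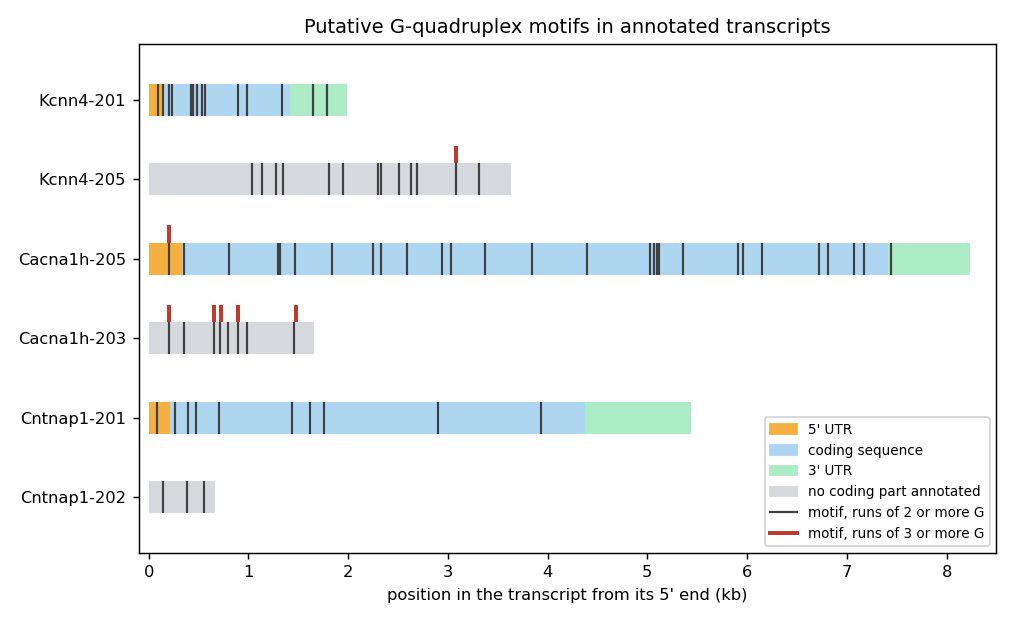
Selected transcripts drawn to scale from the 5′ end (kb), coloured by 5′ UTR, coding sequence, 3′ UTR or no coding part; black ticks are motifs with runs of 2 or more guanines and red ticks motifs with runs of 3 or more. Kcnn4-201 holds 14 black ticks in 1990 bases, Cacna1h-203 holds 5 red ticks, Cacna1h-205 a single red tick in the 5′ UTR, and Cntnap1-201 has 10 black and 0 red.

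The strands of the transcripts were also compared, the complementary strand being the complement of each spliced transcript and not a known antisense RNA. Kcnn4-201 had 14 motifs with runs of 2 or more guanines on its own strand and 5 on the complementary strand. Cacna1h-205 had 28 on its own strand and 40 on the complementary one, and Cntnap1-201 had 10 and 27. Of 21866 genes, 37.6% had more on their own strand and 49.3% fewer, and among the 163 genes of the table the shares were nearly even, 44.2% with more and 47.2% with fewer. The mean G4Hunter score over the whole transcript was 0.0779 for Kcnn4-201, -0.0802 for Cacna1h-205 and -0.0748 for Cntnap1-201, at percentiles 89.5, 16.4 and 17.8. The sign for Kcnn4 turned with the transcript, as Kcnn4-205 had a mean of -0.0492, at percentile 26.2 of the longest transcripts. For runs of 3 or more guanines, Cntnap1-201 had 0 motifs on its own strand and 3 on the complementary strand. At least 1 on the complementary strand was found in 23.0% of the 21866 genes, and 3 or more in 2.60%. The cut-off of 3 is the observed count, and the counts are not divided by length, in which Cntnap1-201 was at percentile 86.3.

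In the longest coding transcripts all 3 members lay above the median in guanine and cytosine together. The share was 60.4% GC in Kcnn4, 60.0% in Cacna1h and 56.1% in Cntnap1, at percentiles 96.0, 95.2 and 82.7 of 21866 genes with a median of 49.1%. Within the table, with a median of 51.9%, these shares lay at percentiles 96.0, 94.8 and 75.8. The longest transcript of Kcnn4, Kcnn4-205, was 51.4% GC, at percentile 62.8 of all genes and 51.8 of the table. Guanine alone made up 31.1% of the bases in Kcnn4-201, 28.5% in Cacna1h-205 and 26.8% in Cntnap1-201, and 24.6% in Kcnn4-205, at percentile 50.6 of all genes and 35.3 of the table. In length they differed, with Kcnn4 at percentile 34.8, Cacna1h at 96.0 and Cntnap1 at 86.3. Kcnn4-205, of 3637 bases, was at percentile 64.0 of the longest transcripts of all genes and 46.9 of the table.

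Related genes were counted on lists drawn up by function. Kcnn4 was 1 of 11 calcium-activated potassium channel genes and the only one of them in the table. Voltage-gated potassium channels had 0 of 44 genes there. Inward rectifier and two-pore potassium channels had 1 of 26, Kcnk6, which passes a background potassium leak, with 20.9 FPKM in BG4 and 0.722 FPKM in IgG. Its log2 ratio of 3.67 was lower than the 6.81 of Kcnn4, at a similar IgG value. That list left out Kcnk15, another two-pore channel gene in the table, which is described under the other observations. Cacna1h was 1 of 25 voltage-gated calcium channel genes, the only one listed, and voltage-gated sodium and HCN channels had 0 of 18. Cntnap1 was 1 of 7 genes of the contactin-associated protein family and 1 of 23 genes of the node, paranode and juxtaparanode, again the only one listed. Absence from the table gives no level, because the table is a selection.

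Markers of forebrain cell types could not be used to check the tissue. Of 54 marker genes on 11 lists (neurons, glutamatergic neurons, GABA neurons, oligodendrocytes, their precursors, astrocytes, microglia, endothelial cells, red blood cells, T and B cells, and choroid plexus) 0 were in the table. Which cells the Kcnn4 RNA came from was therefore not tested.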

How the data were processed

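RNA bound by BG4 or by normal rabbit IgG from mouse forebrain was made into 1 library per antibody with the Ion Total RNA-Seq Kit, according to the labels. Groups were taken from the antibody label. The authors deposited 1 table of 170 genes. Cufflinks and mm10 are named per the submitters' processing notes. The aligner, annotation, strand handling, library scaling and rule of selection were not given in the sources used here. Deposited values were taken to be FPKM from the Cuffdiff layout of the table, since the file header names no unit. The deposited log2 columns equal their logarithms. The authors compared both libraries to give each p-value and q-value.

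The log2 ratio used a pseudocount of 1 FPKM and genes with at least 1 FPKM in either library, which all 170 met. No p-value was computed, since there were no replicates and the members were chosen from these values. The members and lists were chosen with earlier results of these data known. The named genes were the members, their 3 nearest genes, their neighbours in rank and by exon overlap, and the listed genes in the table, except for 1 that is not reported here. Identifiers were matched to GENCODE M21 without the version (all 170 matched). Starts in the table count from 0, so 1 was added. Percentiles are shares of genes with a lower value, with ties given equal weight on either side, which describe 1 gene and are no test. The motif search recovered all motifs planted in simulated sequences, whose loops and flanks held no guanine. Guanines in loops, as in Kcnn4, were thus not covered by the planted motifs. Alternatives were the pseudocount, library medians, filters, fold threshold and motif definitions. The complementary strand, G4Hunter scores (windows of 25 bases) and percentiles of coding transcripts were added after the data were seen. Python 3.11.15, pandas 2.3.3, numpy 2.4.6 and matplotlib 3.10.9 were used.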

Additional observations from a re-analysis of the deposited data

How the results depend on the processing

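No paired analysis was possible because each antibody had a single library. Changes over 1.5-fold are given here. The log2 ratio of Kcnn4, 6.81, became 7.74 with a pseudocount of 0.1 FPKM, 7.89 with none and 1.95 after division by library medians. That of Cacna1h, 2.34, became 4.78, 6.13 and 0.11, and that of Cntnap1, 2.90, became 4.94, 5.66 and -0.061, the only sign to turn. Low IgG values make the first shifts. Centring the table makes part of the last, by construction. Adding 1 after the division also changes it, since that 1 stands for 7.88 FPKM in BG4 and 0.143 FPKM in IgG. Of 170 genes above 2-fold, 70 were left with at least 10 FPKM required, Kcnn4 as the only member among them, and 164 at 4-fold; there were 170 with a pseudocount of 0.1 or no filter.

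Motifs with runs of 3 or more guanines numbered 1 in Kcnn4, 1 in Cacna1h and 0 in Cntnap1. With runs of 2 or more they numbered 13, 28 and 10. Kcnn4 had 0 with 4 separate runs or in its longest coding transcript. Cacna1h had 6 with all exons merged. On the complementary strand, chosen after the data were seen, the counts were 0, 0 and 3. Longer loops, of up to 12 bases, changed none of the 3 counts. Read depth is unknown, so no limit from counting could be set on the IgG values.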

Other observations

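A second two-pore potassium channel gene, Kcnk15, was listed by the authors but stood outside the gene lists, and was chosen after its values were seen. Its values were 15.0 FPKM in BG4 and 1.16 FPKM in IgG. The log2 ratio was 2.89 with the pseudocount of 1 FPKM and the ratio without one 12.9-fold, rank 155 of 169. Kcnk6, its listed relative, had a 29.0-fold ratio, rank 127. Kcnn4, at 238-fold, thus stood above both of these potassium channel genes. The authors' deposited table gives a q of 0.0982 to Kcnk6 and of 0.271 to Kcnk15.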
